A study of Mus musculus with 20 samples.

Results

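The AP-1 family genes *Fos*, *Fosb*, *Fosl2*, *Jun*, *Junb* and *Jund* were followed in splenic follicular T cells of autoimmune and control chimeric mice. They were taken by symbol, and all 6 of 6 were found among the 13798 genes of the expression matrix, which covered 28192 cells from 10 mice. AP-1 is a dimeric transcription factor in which a Fos protein pairs with a Jun protein, while Jun proteins can also pair among themselves. In T cells, signals from the antigen receptor and costimulation switch on *Fos* and *Jun* within minutes as immediate early genes, and AP-1 then acts with NFAT at cytokine genes. *Junb* and *Jund* are further Jun family members, and *Fosb* and *Fosl2* (Fra-2) encode further partners of the Jun proteins. *Fos* and *Jun* also respond to the stress of tissue dissociation and sorting.

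The 5 control mice were wild type (WT) chimeras on a C57BL/6 background, irradiated, reconstituted with congenic bone marrow and immunized with NP-OVA in alum at week 6. The 5 autoimmune mice were mixed 564Igi chimeras, irradiated and given WT marrow together with marrow of 564Igi mice, whose B cells carry a knocked-in autoreactive receptor heavy and light chain, and the labels give them no immunization. The methods also describe a later NP-OVA booster of immunized mice, which the labels do not mention. According to the labels all mice were sacrificed 10 weeks after irradiation. CD4+CXCR5+PD-1+ cells of CD45.2+CD45.1- phenotype were sorted and 1 droplet-based 5′ RNA library and 1 T cell receptor (TCR) library were made from each mouse. The labels record 2 female and 3 male WT mice and 3 female and 2 male 564Igi mice. Because only WT mice were immunized, autoimmunity and immunization cannot be told apart in any comparison of the conditions, and the authors also normalized the cells of the conditions apart.

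WT mice gave 14965 cells and 564Igi mice 13227, between 1121 and 4030 per mouse, with median depths of 2728 to 4375.5 raw UMIs per cell. *Cd3e* was found in 99.4% of cells, and the markers of the 6 clusters named by the authors matched their names, for example *Foxp3* in 56.7% of Tfr cells and 6.98% of others, *Sostdc1* in 100% and 13.9%, and *Sox4* in 70.1% of central memory Tfh cells and 0.535% of others. Some genes of other cells were rare (*Cd79a* in 0.253% of cells, *Lyz2* in 0.231%), while *Cd79b*, *Cd22*, *Cd68* and *Cst3* were found in 3.52%, 4.37%, 3.44% and 45.3%. The CD8 T cell gene *Cd8b1* was found in 4.59%, and *Cd8a* was not in the matrix. In all, 491 barcode sequences occurred in more than 1 library and involved 988 cells. For *Jun*, mice 12 (WT) and 13 (564Igi) stood apart from the other 8, as described below. Results that rest on them are given with and without them, apart from some. These are the genes outside the family found in the same cells as each member, correlations within a condition, and counts and medians over gene lists. In the labels, the libraries of mice 34 and 36 are numbered apart from the rest.

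On the GRCm38 assembly, in GENCODE vM21, *Fos* lies on chromosome 12 at 85473890-85477273 (plus strand), *Fosb* on chromosome 7 at 19302696-19310051 (minus), *Fosl2* on chromosome 5 at 32135801-32157842 (plus), *Jun* on chromosome 4 at 95049034-95052222 (minus), *Junb* on chromosome 8 at 84974484-84978718 (minus) and *Jund* on the same chromosome at 70698949-70700616 (plus). *Jun* and *Jund* are annotated with 1 exon. The 250 bases before the start site in RefSeq (GRCm38.p6) are shown for the 4 genes whose detection the co-detection results turn on: chr12:85473640-85473889 (plus) for *Fos*, chr7:19310046-19310295 (minus) for *Fosb*, chr4:95052223-95052472 (minus) for *Jun* and chr8:84978749-84978998 (minus) for *Junb*, each 5′ to 3′ on the gene's strand, with matches to TGACG or TGACNTCA, the letters of CRE- and ATF-type sites, in capitals.
Fos: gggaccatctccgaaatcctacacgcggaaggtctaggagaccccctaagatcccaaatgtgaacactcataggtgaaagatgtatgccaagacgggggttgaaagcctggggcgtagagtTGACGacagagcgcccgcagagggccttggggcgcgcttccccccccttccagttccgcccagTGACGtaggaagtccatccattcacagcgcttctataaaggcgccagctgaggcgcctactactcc
Fosb: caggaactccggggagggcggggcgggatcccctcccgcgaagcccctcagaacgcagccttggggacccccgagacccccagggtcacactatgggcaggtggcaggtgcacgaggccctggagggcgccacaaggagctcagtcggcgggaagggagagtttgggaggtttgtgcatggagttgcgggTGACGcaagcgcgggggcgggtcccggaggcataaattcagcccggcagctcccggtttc
Jun: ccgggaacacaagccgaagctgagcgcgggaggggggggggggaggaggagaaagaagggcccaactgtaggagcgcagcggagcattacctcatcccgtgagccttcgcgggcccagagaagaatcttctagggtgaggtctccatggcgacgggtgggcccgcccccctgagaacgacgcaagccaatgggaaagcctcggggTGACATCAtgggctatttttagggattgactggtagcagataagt
Junb: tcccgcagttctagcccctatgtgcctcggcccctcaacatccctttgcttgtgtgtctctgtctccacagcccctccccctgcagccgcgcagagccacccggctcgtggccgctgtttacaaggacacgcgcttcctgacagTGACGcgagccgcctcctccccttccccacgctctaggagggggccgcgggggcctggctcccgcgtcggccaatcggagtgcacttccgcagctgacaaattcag

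These windows differed in the letters searched on both strands. TGACG was found in *Fos* (first base at -129 and -66 from the start site), in *Fosb* (-60) and in *Junb* (-106). *Jun* held TGACATCA at -45, the pattern TGACNTCA. The windows of *Fosl2* (chr5:32136222-32136471, plus) and *Jund* (chr8:70697489-70697738, plus) held neither, but they do not adjoin the GENCODE gene starts given above, since the *Fosl2* window lies inside the gene and the *Jund* window well before it. Over 32851 promoter windows of the same length, 17.8% held TGACG and 7.49% held TGACNTCA, patterns that overlap where N is G. TATAAA was found in *Fos* alone (-33), against 12.4% of all windows. The AP-1 consensus TGANTCA and the CArG box bound by serum response factor were found in none of the 6 windows, against 6.75% and 1.47% of all. A match describes letters and not a bound site, and no match says only that these letters are not in this window.

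Detection, counted as at least 1 depth-corrected UMI in a cell, divided the 6 genes into widely and rarely found transcripts. A 5′ library counts each molecule once whatever its length, so shares are set side by side per gene without a length correction. *Junb* was found in 18087 cells (64.2%) and *Jund* in 15319 (54.3%). *Jun* was found in 1995 cells (7.08%), *Fos* in 1206 (4.28%), *Fosl2* in 547 (1.94%) and *Fosb* in 104 (0.369%). The B cell gene *Cd79a*, which T cells should lack, was found in 0.105% to 0.410% of cells per mouse at the same depths, near the *Fosb* shares of 0% to 0.860% per mouse. Other B cell genes were found more often, *Cd79b* in 2.38% to 5.24%, *Cd22* in 2.94% to 6.12% and *Fcmr* in 1.61% to 3.72% of cells per mouse, ranges that overlap those of *Fosl2*, *Fos* and *Jun* given below. How much of the shares of the rarely found members is background was not tested. A *Fosb* count of 0 in the 1121 cells of mouse 24 allows a share of up to 0.268%. Intervals and limits of this kind cover counting error only. No cell held all 6 transcripts, 16.7% held none, 41.5% held 1, 35.4% held 2 and 6.40% held 3 or more.

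*Jun*, the main partner of Fos proteins, varied most between mice among the 5 members found in every mouse. It was found in 1.27% (mouse 36), 2.28% (23), 3.13% (11), 8.20% (14) and 21.1% (12) of cells in WT mice. In 564Igi mice it was found in 1.13% (34), 1.52% (24), 5.596% (17), 9.65% (21) and 17.6% (13). The conditions therefore covered the same range, and the highest mouse exceeded the lowest 18.7-fold. In cells with 3000 to 4500 raw UMIs the shares were 20.2% in mouse 12, 19.0% in mouse 13, 1.503% in mouse 36 and 1.28% in mouse 34.

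*Fos* was found in 2.08% (mouse 36), 3.16% (11), 3.25% (23), 4.34% (14) and 7.21% (12) of cells in the WT mice. The 564Igi mice had shares of 2.96% (17), 3.12% (24), 3.56% (34), 4.65% (21) and 8.86% (13). Mice 12 and 13 were again the highest of their conditions, over a range of 4.25-fold. *Junb* ran from 56.1% (36) to 77.2% (12) in WT mice and from 57.2% (17) to 81.3% (13) in 564Igi mice, and thus also peaked in these mice. *Jund*, which is regulated less by acute signals, ranged from 45.0% (36) to 62.2% (14) in WT mice and from 45.2% (34) to 68.9% (17) in 564Igi mice, and mouse 12 was the second lowest WT mouse at 46.6%.

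*Fosl2* had another order of mice. It was found in 0.558% (12), 1.05% (11), 1.41% (36), 2.05% (23) and 2.33% (14) of cells in the WT mice. Its 564Igi shares were 1.81% (17), 2.15% (34), 2.59% (24), 2.88% (13) and 3.04% (21). The mouse with the highest *Jun* share thus had the lowest *Fosl2* share, and the conditions overlapped.

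**Figure D1:**
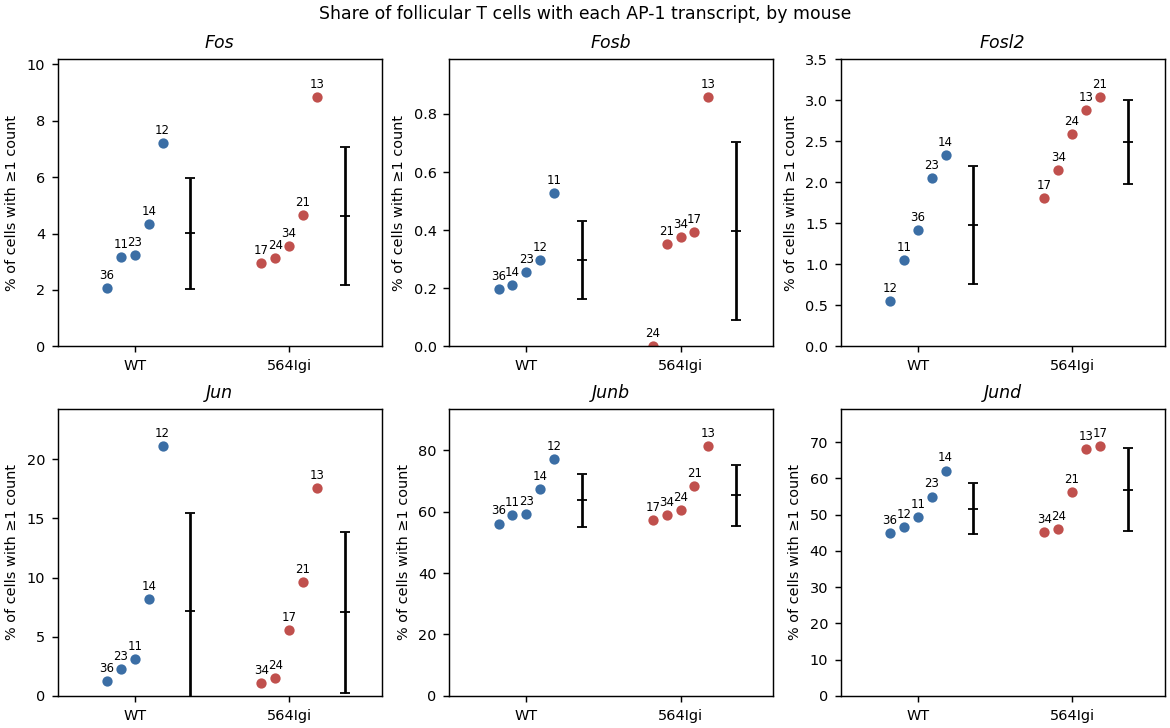
Share of all follicular T cells with at least 1 corrected count of each AP-1 gene (y axis, percent, a separate scale per gene) in each mouse, with mouse numbers above the points and the mean ± SD of 5 mice beside each condition. The WT and 564Igi points overlap for every gene, and mice 12 and 13 are the highest of their conditions for *Jun*, *Fos* and *Junb*. The lower end of the WT bar for *Jun* falls below 0 and is cut at the axis.

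No member differed between conditions past the limits used. Means per mouse of log2(count + 1) were compared with limma over the 9959 genes that at least 1% of the cells of 5 or more mice held, and a gene was called at an adjusted p below 0.01 with a log2 difference above 0.2 in size. Of the 5 members that passed this filter 0 were called, where 1 of 9959 genes was called in all (0.01%) and 318 had an unadjusted p below 0.05. *Fosb* was under the filter. The log2 differences, 564Igi minus WT, were 0.0091 ± 0.0122 (SE) for *Fos*, 0.0117 ± 0.0037 for *Fosl2*, -0.0034 ± 0.0379 for *Jun*, 0.0716 ± 0.114 for *Junb* and 0.125 ± 0.0809 for *Jund*. The limma 95% intervals were -0.0824 to 0.0756 for *Jun*, -0.166 to 0.309 for *Junb* and -0.0439 to 0.293 for *Jund*, so these data leave room for differences above the limit of 0.2 in *Junb* and *Jund*. The mean WT levels of *Fos*, *Fosl2* and *Jun* were 0.0510, 0.0160 and 0.0853, all below that limit. No decrease of these genes could therefore be called, and an increase only if it exceeded their whole WT level. That they were not called does not show them unchanged. *Jun* changed sign when mouse 12 was left out (0.0411), when mice 12 and 13 were (0.0096) or when mouse 17, 24 or 34 was (0.0020 to 0.0138), and *Fos* and *Junb* did so without mouse 13 (-0.0046 and -0.0459). The smallest p among the members was that of *Fosl2* (limma, unadjusted p = 0.0052, adjusted p = 0.837).

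The shares of cells were compared with a two-sided exact permutation test over the 5 and 5 mice, which cannot give a p below 0.00794. *Fosl2* was found in 1.48% ± 0.721 (SD, n = 5) of cells per WT mouse and 2.49% ± 0.510 (SD, n = 5) per 564Igi mouse (exact p = 0.0397, adjusted over the 6 members p = 0.238). Without mice 12 and 13 the *Fosl2* difference was 0.687 percentage points (exact permutation p = 0.143, n = 4 and 4, adjusted p = 0.857). *Jun* was found in 7.20% ± 8.23 and 7.09% ± 6.80 (exact permutation p = 0.976, n = 5 and 5). *Junb* was found in 63.7% ± 8.64 and 65.2% ± 9.93 (exact permutation p = 0.746), and *Jund* in 51.6% ± 7.02 and 56.9% ± 11.5 (exact permutation p = 0.389). The remaining adjusted p values were at least 0.893.

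Within clusters the result was the same in number: 0 of the 4 to 6 members tested were called in the activated Tfh (percent of all genes called 0.0101%), Tfr (0.0200%), *Sostdc1* Tfh (0.0202%), central memory Tfh (0%), effector Tfh (0.0104%) and interferon stimulated Tfh (0.0106%) clusters. In no cluster did a condition's mean level of *Fos*, *Fosb*, *Fosl2* or *Jun* exceed 0.136, so a decrease of these genes could not reach the limit of 0.2. *Fosb* passed the filter in central memory Tfh cells alone, with a log2 difference of -0.0247 (limma, adjusted p = 0.673). *Fosl2* differences were 0.0108 in activated Tfh, 0.0112 in Tfr and 0.0388 in central memory Tfh cells (limma, adjusted p = 0.972, 0.9998 and 0.575). The difference between conditions was compared between Tfr and activated Tfh cells by a test on each mouse's own Tfr minus activated Tfh value, in which 0 of 9936 genes (0%) and 0 of 5 members were called and 730 genes had an unadjusted p below 0.05. *Jund* had the smallest p among members there (log2 difference -0.0590 ± 0.0303 (SE), limma adjusted p = 0.741).

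Levels by cluster are given as a description, with no test, since the clusters were made from these cells' expression. *Junb* was highest in Tfr cells, the regulatory follicular T cells, at a mean log2 level of 1.34 ± 0.236 (SD over 10 mice), followed by *Sostdc1* Tfh at 1.02 ± 0.207, interferon stimulated at 0.968, activated at 0.956 ± 0.230 and effector Tfh cells at 0.912. Central memory Tfh cells, which express *Sox4*, were lowest at 0.668. Per mouse, Tfr cells exceeded activated Tfh cells by 0.381 ± 0.0428 (SD) and did so in 10 of 10 mice, and they exceeded *Sostdc1* Tfh cells in 10 of 10. The Tfr shares ran from 63.7% (36) to 85.4% (13), and those of activated Tfh cells from 48.5% (36) to 77.2% (13). From *Sostdc1* Tfh cells down to central memory Tfh cells, no cluster differed from the next by more than the SD of the difference over mice, although central memory cells lay below activated Tfh cells in 8 of 8 mice.

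*Jund* had a partly different order. Its level was 0.854 in *Sostdc1* Tfh and 0.839 in Tfr cells, which did not differ beyond their spread (5 of 10 mice each way), and 0.720 in activated Tfh cells, below both in 10 of 10 mice. Its level was 0.599 in effector and 0.586 in interferon stimulated Tfh cells, which differed from each other by less than their spread, and 0.452 in central memory Tfh cells. Central memory cells were below activated Tfh cells in all 8 mice with at least 20 of them. Central memory Tfh cells thus had the lowest mean level of both widely found members.

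*Fos* was placed otherwise. It had its highest mean level in central memory cells, 0.118 ± 0.0718 (SD, 8 mice), against 0.0675 in *Sostdc1*, 0.0576 in Tfr, 0.0542 in interferon stimulated, 0.0486 in activated and 0.0336 in effector Tfh cells. Central memory cells exceeded activated Tfh cells in 7 of 8 mice, by 0.0695 ± 0.0542 (SD), and the central memory mean of *Fos* was 0.101 without mouse 12, against 0.0538 in Tfr cells of the same 7 mice. *Jun* was higher in central memory than in activated Tfh cells in 8 of 8 mice, by 0.0349 ± 0.0340 (SD). Its central memory mean of 0.118 rested on mouse 12, which had 0.417 in 62 cells, and only 5 of 8 mice had more *Jun* in central memory than in Tfr cells. Without mouse 12 it was 0.0753, against 0.0784 in Tfr cells of the same 7 mice. *Jun* in Tfr cells (0.0932) was above *Sostdc1* Tfh cells (0.0676) in 10 of 10 mice and above activated Tfh cells (0.0781) in 9 of 10. *Fosl2* stayed between 0.0156 and 0.0242 and *Fosb* between 0.0012 and 0.0154 over the 6 clusters, with no neighbouring clusters apart by more than the spread. The 8 mice with enough central memory cells held only 21 to 185 of them each.

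**Figure D2:**
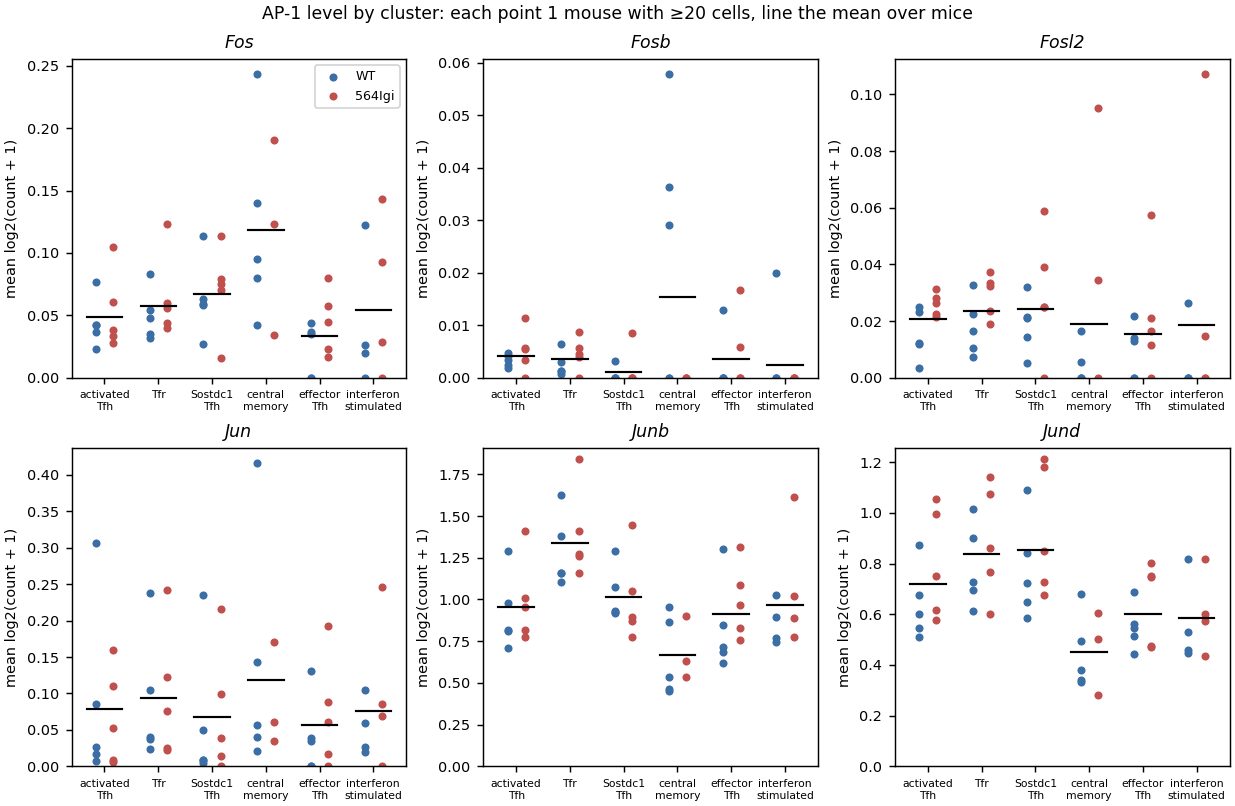
Mean log2(count + 1) of each AP-1 gene (y axis, a separate scale per gene) in the 6 clusters, each point 1 mouse with at least 20 cells of the cluster and the line the mean over mice. *Junb* is highest in Tfr cells (1.34) and both *Junb* and *Jund* are lowest in central memory Tfh cells (0.668 and 0.452), where *Fos* has its highest mean (0.118). The *Jun* mean there (0.118) is raised by mouse 12 and is 0.0753 without it, and 8 mice had enough cells of this cluster.

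Mice 12 and 13 held the first 2 ranks for *Jun* in each of the 5 clusters where both had at least 20 cells. In activated Tfh cells *Jun* was found in 23.1% (12) and 13.8% (13) of cells, against 0.581% to 9.35% in the other 8 mice. In Tfr cells it was found in 19.99% and 20.12%, against 1.84% to 10.9%. In *Sostdc1* Tfh cells it was found in 18.8% and 19.1%, against 0% to 8.71%. They also held the first 2 ranks for *Fos* in 4 of these 5 clusters, and for *Junb* in 4. The 2 mice belong to different conditions and were both labelled female, as were mice 11, 21 and 34. Their median depths were 2937.5 and 3714.5 raw UMIs, within the range of the others, and their summed B cell markers (5 of 6 listed genes measured) were 0.134 and 0.168 counts per cell. Over conditions this sum ranged from 0.134 to 0.161 in WT and from 0.0910 to 0.168 in 564Igi mice, so mouse 13 had the highest sum of all. Summed myeloid markers (5 of 5) ranged from 0.621 to 0.953 and from 0.550 to 0.937, with 0.663 in mouse 12 and 0.937 in mouse 13. The part of these markers in the *Jun* levels was not tested.

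Over the 10 mice, the levels of *Fos*, *Jun* and *Junb* varied together. *Fos* and *Junb* had Pearson r = 0.969 (permutation, adjusted over 15 pairs p = 0.0003) and Spearman rho = 0.927 (permutation, adjusted p = 0.0051), and r was 0.794 without mice 12 and 13. *Jun* and *Junb* had r = 0.917 (permutation, adjusted p = 0.0158), rho = 0.721 (permutation, adjusted p = 0.117) and r = 0.705 without these mice. *Fos* and *Jun* had r = 0.870 (permutation, adjusted p = 0.0293), rho = 0.733 (permutation, adjusted p = 0.117) and r = 0.597 without them. All 3 values of r were lower without these mice, and the rank correlations of *Jun* did not pass. Without mice 34 and 36 the 3 values of r were 0.970, 0.909 and 0.871. Within the 5 WT mice they were 0.957, 0.992 and 0.960, and within the 5 564Igi mice 0.984, 0.903 and 0.905. The WT group holds mouse 12 and the 564Igi group mouse 13, and r within a condition was not computed without them. *Jund* had r = 0.306, 0.273 and 0.285 with *Fos*, *Jun* and *Junb*, and no other pair passed (adjusted p at least 0.244).

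The genes outside the family whose levels over mice were most like each member were ranked among 7090 genes found in at least 5% of cells, and are named with r as a description over 10 mice. For *Jun* they were *Ppp1r15a*, a phosphatase subunit of the stress response (0.953, and 0.609 without mice 12 and 13), *H2.Q4* (0.945 and 0.696) and *Slc7a10* (0.944 and 0.712). For *Fos* they were *Cd74* (0.942 and 0.633), *Tnfrsf4*, which encodes OX40 (0.930 and 0.414), and *Nfia* (0.928 and 0.810), and for *Junb* *Tnfrsf4* (0.949 and 0.843) and *Cd74* (0.945 and 0.692). For *Fosl2* they were 3 genes of T cell activation, the cytokines *Ifng* (0.926 and 0.877) and *Il21* (0.920 and 0.843) and the checkpoint receptor *Lag3* (0.918 and 0.836). *Jund* was closest to *Rnf149* (0.971), *Fyn* (0.961) and *Dok1* (0.958), and *Fosb* to *Tmem30a* (0.961), *Acot9* (0.945) and *Eef2kmt* (0.942). For the last 2 members most genes went along, since 87.6% of 9954 genes had a positive r with *Jund* and 92.6% with *Fosb*, against 49.8% with *Jun* and 55.8% with *Fos*. Over the means of 6 clusters the closest genes included *Cluap1*, *Stat6* and *Pikfyve* for *Jun*, *Nob1* and *Gatad2b* for *Fos*, *Gpx4*, *Itpkb* and *Vsig10* for *Junb*, *Aph1a*, *Praf2* and *Ninj1* for *Jund*, *Mif*, *Psma7* and *Nelfe* for *Fosl2* and *Dgkd*, *Rasgrp1* and *Dcaf17* for *Fosb*, with r of 0.987 to 0.998 over only 6 points.

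Among the other immediate early genes, 13 of 16 had a positive r with *Jun* over mice (median 0.387, and -0.0014 over all genes) and 14 of 16 with *Fos* (median 0.484 against 0.0473). *Dusp1*, a phosphatase that switches off the kinases upstream of *Jun*, was found in 33.4% and 38.4% of cells in mice 12 and 13 and in 13.7% to 26.9% in the others. Its r with *Jun* was 0.923, and 0.934 without mice 12 and 13. *Cd69*, an early activation marker, had r = 0.823 with *Jun*, and 0.894 without them. *Nr4a1*, which is induced by antigen receptor signals, had r = -0.0824 with *Jun*, and 0.331 without mice 12 and 13. Its level was lowest of all in mouse 12 (0.149) and next to highest in mouse 13 (0.259), so the mice with the most *Jun* differed in *Nr4a1*. *Egr2*, also induced by the antigen receptor, had r = -0.320, and -0.366 without them.

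**Figure D3:**
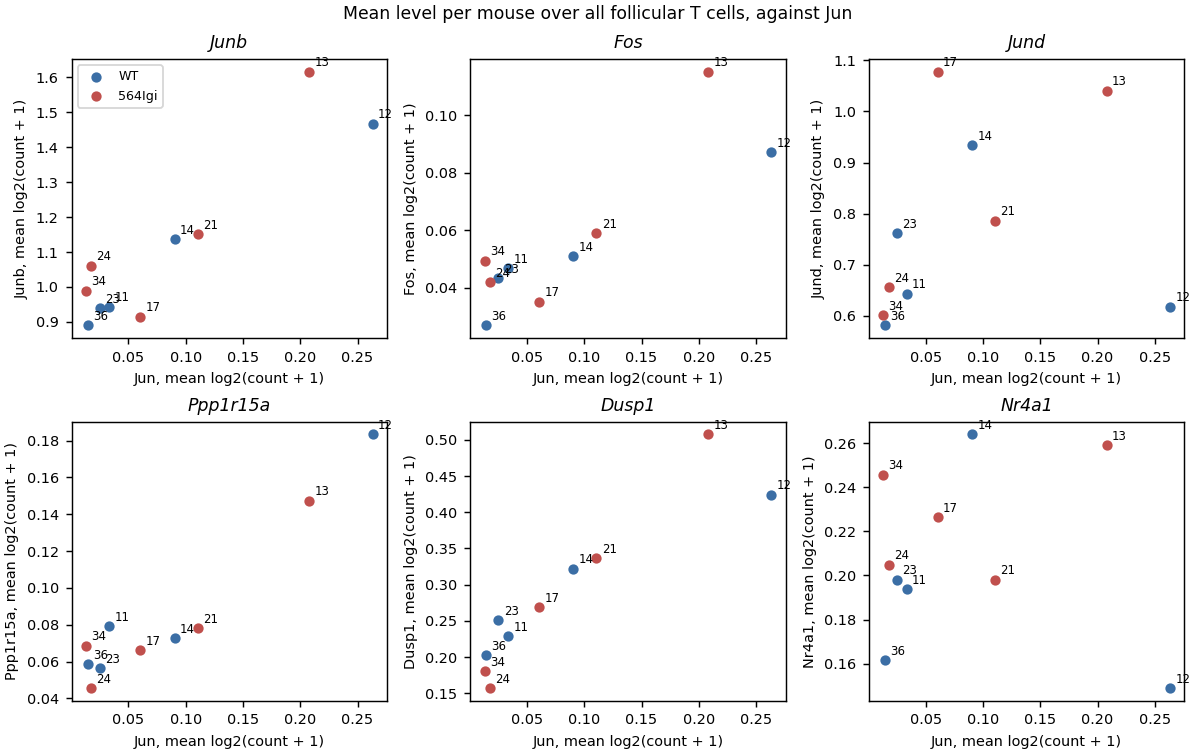
Mean log2(count + 1) over all cells of each mouse for 6 genes (y axes) against that of *Jun* (x axes), with mouse numbers. *Junb*, *Fos*, *Ppp1r15a* and *Dusp1* are highest in mice 12 and 13, which lie to the right, whereas *Jund* is not high in mouse 12 and *Nr4a1* is lowest there (0.149).

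The heat shock score, which the authors regressed out during normalization against a batch effect, was not correlated with any member past the threshold (*Jun* r = -0.450, permutation adjusted p = 0.665, and rho = -0.636, permutation adjusted p = 0.328, n = 10 mice). The corrected counts used here still differed in heat shock genes. Their summed mean counts were 30.17 in mouse 34 and 26.98 in mouse 36, against 13.97 to 20.69 in the others. Mice 34 and 36 also had the highest mean scores, 0.115 and 0.0809. Of the 8 heat shock genes above the filter, 0 had a positive r with *Jun* over mice (median -0.614). Without mice 12 and 13, *Dnajb1* had r = 0.257 with *Jun*, and the others ran from -0.526 (*Hsph1*) to -0.271 (*Hspe1*). The 2 listed heat shock genes under the filter behaved otherwise. *Hspa1a* was found in 3.68% (mouse 12), 2.15% (13), 2.05% (21) and 1.64% (14) of cells and in 0.141% to 0.581% in the other 6 mice. *Hspa1b* was found in 4.16% (12), 2.18% (21), 1.82% (13) and 1.48% (14), and in 0% to 0.535% in the others. These are the same 4 mice that had the 4 highest *Jun* shares. The part of heat shock or handling in the levels was not tested.

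No list of related genes held a called gene between conditions in all follicular T cells. Of the 8 other AP-1 proteins listed, 3 were tested, and *Batf*, a partner of Jun proteins in T follicular helper cells, differed by 0.123 ± 0.0517 (SE, log2, limma adjusted p = 0.9997), with *Atf2* at -0.0077 and *Atf7* at -0.0072. Of 14 kinases and factors that switch on *Fos* and *Jun*, 14 were tested and 5 were above 0 (median -0.0013, with -0.0018 over all genes), with *Creb1* at -0.0292 and *Elk4* at -0.0245. Of 13 feedback genes, 12 were tested and 6 were above 0, led by *Zfp36l1*, which promotes mRNA decay, at -0.148 ± 0.0722 (SE), *Btg1* at 0.111 and *Dusp2* at 0.0706. Of 17 other immediate early genes, 16 were tested and 8 were above 0, led by *Klf2* at -0.0795, *Gadd45b* at 0.0591 and *Nfkbia* at 0.0467. Of 8 cytokine and surface genes under joint NFAT and AP-1 control, 6 were tested and 5 were above 0 (median 0.0137), and *Il21* at 0.0658 ± 0.0186 (SE, limma adjusted p = 0.613), *Ifng* at 0.0489 ± 0.0159 (limma adjusted p = 0.872) and *Tnf* at -0.0364 ± 0.0162 (limma adjusted p = 0.9997) each had an unadjusted p below 0.05. Of 10 heat shock proteins, 8 were tested and 7 were above 0, led by *Hspa8* at 0.155 ± 0.182 (SE), *Hsp90ab1* at 0.101 and *Hspe1* at 0.0218.

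Within single cells, *Fos* and *Fosb* occurred together far more often than their shares within each mouse give. They were found in the same cell 52 times against 5.25 expected from the shares of each mouse, 9.91-fold more. *Fos* was found in 48.01% of *Fosb* positive cells and 4.28% of *Fosb* negative cells, and was higher among positive cells in 9 of 9 mice with *Fosb*. The Mantel-Haenszel log2 odds ratio over strata of mouse, cluster and depth, each mouse's cells being divided into equal groups by raw UMIs, was 4.27, and 4.51 without mice 12 and 13.

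*Fos* and *Junb* had the next highest stratified odds ratio. They shared 1015 cells against 823 expected, with a log2 odds ratio per mouse, computed after 0.5 was added to each count, of 1.45 ± 0.622 (SD), above 0 in 10 of 10 mice. *Junb* was found in 82.9% of *Fos* positive and 63.8% of *Fos* negative cells (means over 10 mice), and its level was 0.608 ± 0.250 (SD, log2) higher in the positive cells. The stratified log2 odds ratio was 1.40. As a reference for genes outside the family, the 24 pairs of the members with *Cd4*, *Icos*, *Pdcd1* and *Cxcr5* had stratified log2 odds ratios of -0.462 to 0.521. The upper end was that of *Fos* with *Pdcd1*, and the reference pairs of *Jun* alone ran from -0.191 to 0.0762 and those of *Junb* from -0.143 to 0.149. *Cd3e*, which few cells lack, was left out of these ranges, and its value was 0.677 with *Jund* and 0.514 with *Fos*.

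*Jun* had lower odds ratios with *Fos* and *Junb* than these had with each other. *Fos* and *Jun* shared 158 cells against 122 expected, with a stratified log2 odds ratio of 0.460, above the reference pairs of *Jun* and within those of *Fos* (0.0304 to 0.521). Without mice 12 and 13 it was 0.593, above both ranges, which were taken over all 10 mice. *Jun* and *Junb* shared 1526 cells against 1436, at 0.358, above the reference pairs of both genes, and per mouse 0.520 ± 0.537 (SD), which turned to -0.162 when only activated Tfh cells were taken. *Jun* and *Jund* shared 1161 against 1143, at 0.0185. *Junb* and *Jund*, both found in most cells, shared 10260 against 9903, at 0.218 and above 0 in 10 of 10 mice. *Fosb* and *Jun* shared 19 cells against 9.22 expected (1.26), in 6 mice. *Fosl2* shared 41 cells with *Fos* against 24.4 (0.699), 404 with *Junb* against 355 (0.564), 368 with *Jund* against 307 (0.580) and 53 with *Jun* against 38.7 (0.479). *Fos* shared 762 cells with *Jund* against 675 (0.378), and *Fosb* shared 79 with *Junb* against 69.5 (0.646) and 74 with *Jund* against 59.3 (0.848). *Fosb* and *Fosl2* shared 1 cell against 2.13.

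**Figure D4:**
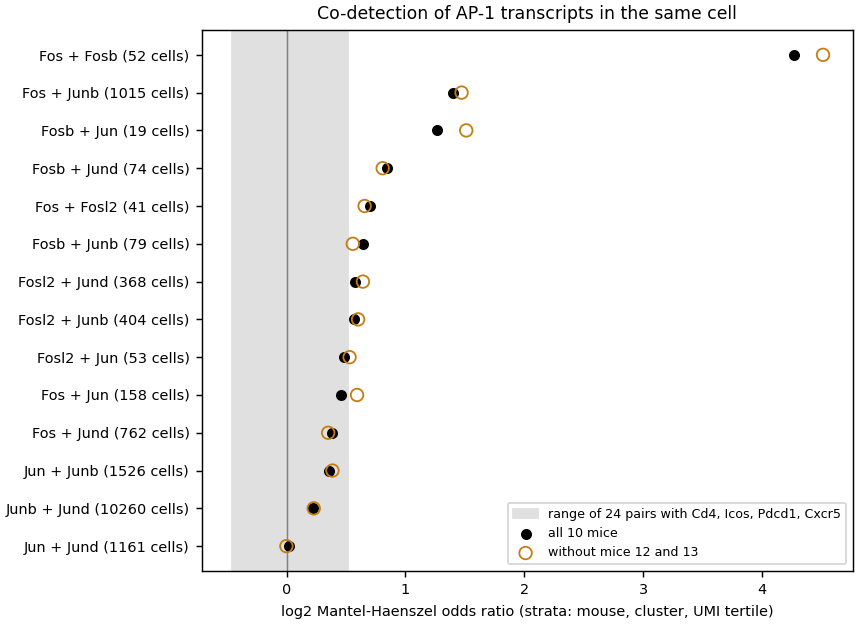
Mantel-Haenszel log2 odds ratio (x axis) that both genes of a pair are found in the same cell, over strata of mouse, cluster and depth, with all 10 mice (filled) and without mice 12 and 13 (open), for the 14 pairs that share at least 19 cells (counts in brackets). *Fos* with *Fosb* (4.27), *Fos* with *Junb* (1.40) and *Fosb* with *Jun* (1.26) lie farthest right of the grey band of -0.462 to 0.521, spanned over all mice by 24 pairs with *Cd4*, *Icos*, *Pdcd1* and *Cxcr5*. *Fosb* with *Jund* (0.848) and *Junb* (0.646) and *Fosl2* with *Fos* (0.699), *Jund* (0.580) and *Junb* (0.564) also lie to its right. With all 10 mice *Jun* with *Fos*, *Junb* and *Jund* lies within the band, of which the *Jun* pairs span -0.191 to 0.0762. Without mice 12 and 13, *Jun* with *Fos* (0.593) and with *Fosl2* (0.530) lies to its right.

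Co-detection was compared between conditions for all 15 pairs with a two-sided exact permutation test on the log2 odds ratio per mouse, and 0 of 15 passed an adjusted p of 0.05. The exact permutation test cannot give a p below 0.00794 with 5 and 5 mice. After adjustment over 15 pairs no single pair could therefore pass alone, and the count of 0 does not show co-detection unchanged. The smallest p was that of *Jun* and *Jund*, with a mean of -0.0890 in WT and 0.335 in 564Igi mice (exact p = 0.0159, adjusted p = 0.238, n = 5 and 5). *Fos* and *Junb* had 1.44 and 1.47 (exact permutation p = 0.944, n = 5 and 5). The share of cells with 3 or more members was 17.8% in mouse 13, 11.2% in mouse 12, 8.24% in mouse 21 and 7.57% in mouse 14, and 2.06% to 5.33% in the other 6 mice.

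The genes found most often in the same cells as each member were ranked by the Mantel-Haenszel odds ratio over mouse and cluster. For *Fos* they were *Nr4a1* (5.12), *Egr2* (4.93), *Egr1* (4.47), *Tagap* (2.95) and *Nfkbid* (2.77), where the median over 7044 genes was 1.10. *Nr4a1*, *Egr1* and *Egr2* are transcription factor genes induced by the antigen receptor. *Nr4a1* was found in 478 of 1206 *Fos* positive cells (39.6%) and in 12.5% of all cells. *Egr1* was found in 61.8% of them and in 26.5% of all. For *Fosb* the same 3 genes led, with odds ratios of 11.3, 8.93 and 8.61, followed by *Spry1* (6.498), a feedback inhibitor of receptor signaling, and *Cd69* (6.14). Of 104 *Fosb* positive cells 64 held *Nr4a1* (61.5%) and 79 held *Egr1* (76.0%), so the few *Fosb* counts lay mostly in cells with these genes.

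*Fosl2* was found with *Nr4a1* (3.83), *Crem* (3.46), *Ccr8* (2.996), *Dusp4* (2.93) and *Tmcc3* (2.74). *Junb* had odds ratios of 2.26 with *Egr2*, 2.06 with *Egr1* and 2.02 with *Nr4a1*, and *Cxcl10* at 2.23, while the genes ranked above these, *mt.Co1*, *mt.Co3* and *Rpl41*, were found in nearly every cell, where few empty cells decide the ratio. *Jund* was likewise headed by the near-ubiquitous *mt.Co1*, *mt.Co3* and *Tmsb4x*, and otherwise by *Padi4* (2.06) and *Cxxc5* (1.92), and had 1.46 with *Nr4a1*.

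Over all 10 mice, *Jun* did not share these partners. Apart from *H2.K1*, *mt.Cytb* and *Rpl22*, found in 99.7%, 99.8% and 99.5% of cells, its leading genes were *Lysmd2* (1.52) and *Socs3* (1.52), a feedback inhibitor of cytokine signaling. Its odds ratios were 1.01 with *Nr4a1*, 0.998 with *Egr2*, 1.16 with *Egr1* and 0.969 with *Spry1*. *Nr4a1* was found in 12.8% of *Jun* positive cells and in 12.5% of all cells, pooled over mice. Mice 12 and 13 held 568 and 531 of the 1995 *Jun* positive cells. These odds ratios and shares of *Jun* were not computed without the cells of these mice. *Socs3* in turn had 0.925 with *Fos* and 0.337 with *Fosb*. These odds ratios are a description over cells of the same 10 libraries, with no test.

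**Figure D5:**
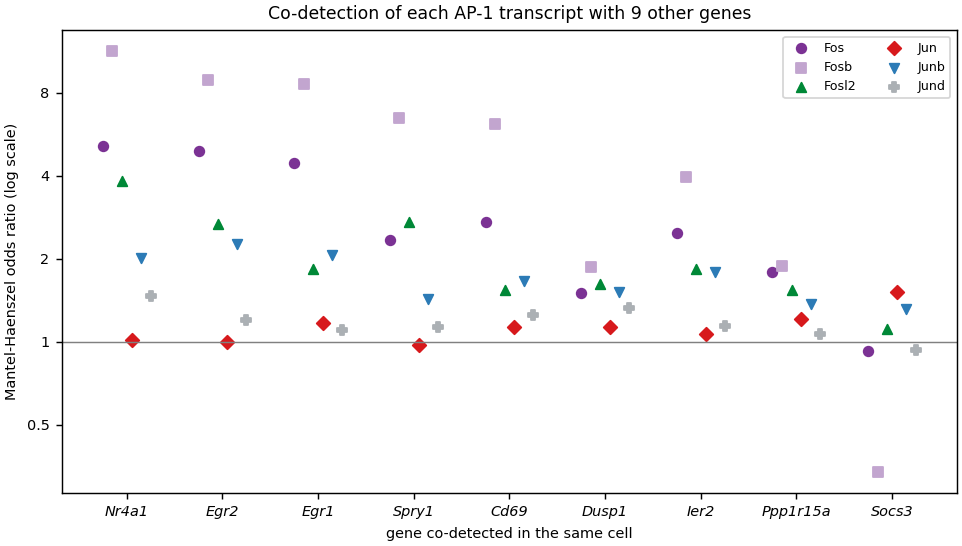
Mantel-Haenszel odds ratio of co-detection over mouse and cluster (y axis, log scale, 1 marks no association) of each AP-1 gene with 9 other genes (x axis). *Fosb* and *Fos* have the highest values with *Nr4a1*, *Egr2* and *Egr1*, where *Jun* lies at 1.01, 0.998 and 1.16, and *Jun* is the highest member for *Socs3* (1.52).

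Clone size comes from the TCR libraries and was not used to make the clusters. Cells whose pair of CDR3 α and β sequences was found in at least 2 cells of the mouse were compared with cells of single-cell clonotypes within each mouse and cluster, among 21405 cells with both RNA and TCR. In activated Tfh cells 6637 expanded and 2416 single cells were compared in 10 mice, in Tfr cells 5808 and 2972 in 10 mice, and in *Sostdc1* Tfh cells 1488 and 340 in 7 mice. Of the members, 5, 5 and 4 were tested, since *Fosb* was under the filter in each cluster and *Jun* in *Sostdc1* Tfh cells. No tested member was called in any of the 3 clusters, in which 0% of all genes were called and 2078, 1698 and 486 genes had an unadjusted p below 0.05. The mean levels of *Fos*, *Fosl2* and *Jun* again lay below the limit of 0.2, so a decrease of these genes could not be called. *Jun* in activated Tfh cells was at 0.0699 in expanded and 0.0902 in single cells, a log2 difference of -0.0203 ± 0.0094 (SE) that was negative in 8 of 10 mice (limma adjusted p = 0.241). *Fos* in Tfr cells was at 0.0544 and 0.0689, a difference of -0.0145 ± 0.0054 (SE) that was negative in 7 of 10 mice (limma adjusted p = 0.201). *Jund* in *Sostdc1* Tfh cells differed by -0.0714 ± 0.0315 (SE, limma adjusted p = 0.832). The expanded minus single difference itself was compared between conditions, with 0 of 5 tested members and 0% of genes called in each cluster. In this comparison 631, 636 and 603 genes had an unadjusted p below 0.05.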

How the data were processed

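RNA was measured in 28192 sorted follicular T cells of 10 mice. Per the paper's methods, reads were processed with Cell Ranger 4.0.0 against GRCm38, cells were filtered in Seurat 3.1.4, and each condition was normalized apart with sctransform, with mitochondrial, ribosomal, UMI and heat shock terms regressed out. The authors deposited the natural log of the corrected count plus 1, and undoing the log gave whole numbers for every value (tolerance 1e-06). These are not raw counts, so no count model and no thinning of cells was used, and shares were repeated in a band of raw UMIs. The deposited cell table holds raw UMI totals, the percent of mitochondrial UMIs, cluster names and the authors' heat shock score. The methods name no doublet removal, and none was run. Fewer cells are in the tables than the paper counts.

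Values were averaged per mouse as log2(count + 1), with at least 20 cells per cluster, and tested with limma 3.58.1 (R 4.3.3, trend), Benjamini-Hochberg over all genes tested, after checks on simulated data. Single values used exact permutation, and correlations 100000 permutations (Python 3.11.15, scipy 1.17.1). Replicates are mice. Alternatives were the variance prior, filters, scales, covariates, call limits, single mice left out, clone limits, a depth band and a count minimum of 2. Strata of mouse, cluster and depth, and leaving out mice 12 and 13, were chosen after seeing the data. The members and gene lists were chosen with earlier results of these data known. Named genes were the members, the 3 list genes of largest difference, the 3 of most similar pattern and the 5 most co-detected, of which some are not reported here. *Hspa1a*, *Hspa1b*, *Dusp1*, *Cd69*, *Nr4a1* and *Egr2* over mice, and *Socs3* and *Spry1* across members, were singled out after their values were seen.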

Additional observations from a re-analysis of the deposited data

Results flagged for a closer look

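Groups of 5 mice were checked for a single mouse far from the rest for each member in all follicular T cells and in the activated Tfh and Tfr clusters. Of 36 groups, 2 were marked, and chance marks about 1 in 20 groups. In Tfr cells of 564Igi mice, *Fos* in mouse 13 had a level of 0.124, and its gap to the next mouse was 0.753 of the whole range of the group. In activated Tfh cells of WT mice, *Jun* in mouse 12 had a level of 0.307, with a gap of 0.740 of the range. The limit for 5 values is 0.71.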

How the results depend on the processing

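The count of members called stayed at 0 between conditions, within clusters, in the test between Tfr and activated Tfh cells and between clone sizes under all alternatives run, as did the count of detection shares and of co-detected pairs past an adjusted p of 0.05. For the members called, this includes an adjusted p below 0.05 with no limit on the difference. In the exact permutation test no single co-detected pair could pass alone under any alternative. No single detection share could do so with 4 and 4 mice. The unchanged counts of these tests therefore do not show stability. Single mice left out moved the log2 difference between conditions from -0.0046 to 0.0182 for *Fos*, from -0.0349 to 0.0411 for *Jun* and from -0.0459 to 0.170 for *Junb*, so their signs are not set by these data. *Jun* was also above 0 with the 3 main clusters weighted equally (0.000167), on log2 of the mean count plus 0.1 (0.0060) and without mice 12 and 13 (0.0096). The cause was not tested. The genes called over all genes in all follicular T cells numbered 1, and 6 on log2 of the mean count plus 0.1, 2 per 10000 counts, 2 with equal clusters, 0 without the trend (196 at an unadjusted p below 0.05) and 7 at an adjusted p below 0.05 with no limit on the difference. At that looser limit 4 were called in activated Tfh, 9 in Tfr, 4 in *Sostdc1*, 3 in central memory and 6 in effector Tfh cells, and without the trend 0 in each cluster between conditions, but 5 and 2 between clone sizes in activated Tfh and Tfr cells. Without WT mouse 14 the count was 3 in activated Tfh and in Tfr cells, 1 in Tfr cells without mouse 11 or 24, and 2 in all cells without mouse 23. Effector Tfh cells gave 3 with at least 50 cells per mouse. In activated Tfh cells the log2 odds ratio of *Jun* and *Junb* was -0.162. With a count minimum of 2 few cells hold both genes of a pair and the added 0.5 can set the odds ratio per mouse, so nothing is read from that alternative. The r with the heat shock score turned sign for *Junb* (0.0598) and *Jund* (0.0983) without the 2 farthest mice, for *Jund* in WT mice (0.112) and for *Fosl2* in 564Igi mice (-0.346). Cells with exactly 1 α and 1 β sequence were all the cells with a TCR, so that alternative changed nothing. No paired analysis was possible because the replicate numbers were given in accession order and do not pair mice across conditions. *Fosb* values rest on 104 positive cells, and each comparison of conditions on at most 5 mice in each.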
